A study of Arabidopsis thaliana with 6 samples.

Results

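The thalianol and marneral gene clusters are 2 short stretches of chromosome 5 in which adjacent genes encode the steps of a root triterpene pathway. Their 7 genes were taken by gene identifier: AT5G47980, THAD (AT5G47990), THAH (AT5G48000) and THAS1 (AT5G48010) for thalianol, and CYP705A12 (AT5G42580), CYP71A16 (AT5G42590) and MRN1 (AT5G42600) for marneral. Of the 7, 4 had a row in the authors' deposited table of 2896 loci, every one of them lower in the pkl mutant than in the wild type. The genes had been chosen with these values known, so the values below are a description. RNA came from whole seedlings of Arabidopsis thaliana, 14 days old and grown in long days, in 3 pkl libraries and 3 wild type (WT) libraries. The pkl plants carry a mutation in PICKLE, which encodes a CHD3-type chromatin remodeler; the labels give neither the allele nor any transgene, and they do not say whether replicates were separate cultures. The table holds 1 value per genotype in FPKM (a fragment count corrected for the length of the transcript and the size of the library), made by the authors with Cuffdiff from the libraries of that genotype. No spread between libraries can therefore be given, and the depth is unknown. PKL itself (AT2G25170) was at 6.79 FPKM in pkl and 19.2 FPKM in WT.

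Triterpenes are made from squalene, which is oxidised and then folded into rings by an oxidosqualene cyclase, and the ring skeleton is next decorated by cytochrome P450 enzymes and acyltransferases. In most plant pathways the genes for these steps are scattered, but in Arabidopsis several root triterpene pathways have theirs side by side. THAS1 and MRN1 are the cyclases that make thalianol and marneral. THAH adds a hydroxyl group to thalianol and THAD introduces a double bond into the resulting thalian-diol, whereas CYP71A16, also called marneral oxidase, oxidises the marneral product. The clusters are active in roots and nearly silent in shoots, where they lie under H3K27me3, the histone mark laid down by Polycomb complexes.

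The listed genes were 3 of the 4 thalianol genes and 1 of the 3 marneral genes, and 3 of these 4 were at least 2-fold lower in pkl. For comparison, the 2896 lower loci were 14.8% of the 19554 tests implied by the authors' p-values and q-values, and the 748 loci at least 2-fold lower were 3.83% of those tests. Since the genes were picked on this contrast, nothing is read from their share. Genes with no row (THAH, CYP705A12 and MRN1) are not listed as lower, and their level and direction were not analysed here. The same p-values and q-values implied 5992 passing tests, so a missing row does not mean that a gene was not called.

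The cyclase of the thalianol cluster, THAS1, was at 2.17 FPKM in pkl and 4.14 FPKM in WT, which is 1.91-fold lower in pkl (log2 fold change -0.94 in the authors' deposited table). The THAS1 locus ran from 19456960 to 19461689 on chromosome 5 (TAIR10). In the RefSeq annotation of TAIR10.1 the gene is on the forward strand with 14 exons, of which 2301 bases are coding. Its fold was larger than that of 71.7% of the 2896 loci, while its level in WT was higher than that of 18.0% of them.

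THAD, the thalian-diol desaturase, was the most abundant of the listed genes in each genotype, at 2.47 FPKM in pkl and 8.14 FPKM in WT. It was 3.30-fold lower in pkl (log2 fold change -1.72 in the authors' deposited table), so the mutant held 30.3% of the WT level. Its locus spanned 19434827 to 19436689, and its annotated gene has 2 exons. THAD exceeded THAS1 by 1.14-fold in pkl and by 1.97-fold in WT. Within 1 cluster the desaturase thus differed more between genotypes than the cyclase, though without values per library the difference between these 2 genes was not tested.

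The acyltransferase gene AT5G47980, annotated only as an HXXXD-type enzyme that transfers acyl groups, had the largest fold of the 4 and the lowest level. It was at 0.233 FPKM in pkl and 0.866 FPKM in WT, 3.71-fold lower in pkl (log2 fold change -1.89 in the authors' deposited table). The fold was larger than that of 94.4% of the loci, but the WT level was higher than that of only 1.59% of them, and the absolute gap was 0.632 FPKM against 5.67 FPKM for THAD. With a pseudocount of 1 FPKM its log2 fold change was -0.60, the smallest of the 4. This gene has a single exon, and its locus spanned 19428888 to 19430476.

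In the marneral cluster the listed gene was CYP71A16, the marneral oxidase. It was at 1.92 FPKM in pkl and 4.78 FPKM in WT, 2.48-fold lower in pkl (log2 fold change -1.31 in the authors' deposited table). The locus spanned 17031111 to 17033726, and the gene lies on the reverse strand with 4 exons. Neither the cyclase MRN1 nor the second P450 of this cluster, CYP705A12, had a row. The marneral pathway is therefore represented here by a tailoring enzyme alone.

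The q-values in the authors' deposited table were 0.000338 for THAS1, THAD and CYP71A16 and 0.00362 for AT5G47980. The value 0.000338 belongs to the smallest p listed, 5e-05, which 1428 loci (49.3%) share, so it does not rank the 3 genes. In pkl the levels ran from THAD through THAS1 and CYP71A16 to AT5G47980. In WT the order was THAD, CYP71A16, THAS1 and AT5G47980. Whether neighbours in either order differ beyond the spread of libraries is not known. From the highest to the lowest of the 4 the range was 10.6-fold in pkl and 9.41-fold in WT. The median log2 fold change of the 4 was -1.52, beside -0.60 for all 2896 loci. These sets were not matched by level: the median WT level of all loci, 16.8 FPKM, was above that of each of the 4.

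**Figure D1:**
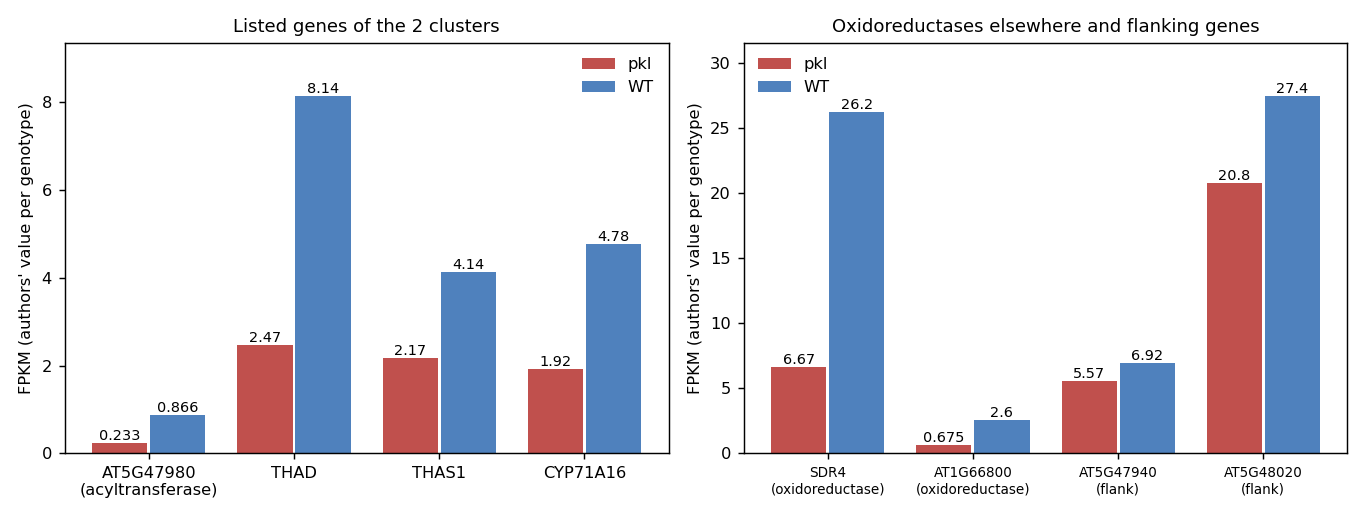
Level in FPKM (vertical axes, from 0) in pkl (red, left bars) and WT (blue, right bars), 1 value by the authors per genotype, with no error bars because no values per library were used. The left panel shows the 4 listed cluster genes, all lower in pkl, and the right panel 2 thalianol pathway genes outside the cluster (SDR4 and AT1G66800) and 2 genes flanking the thalianol cluster, of which the flanking pair differ by 1.24-fold and 1.32-fold.

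The table also held thalianol pathway genes that do not lie in the cluster. A list of 3 had been drawn up from general knowledge of the pathway: the oxidoreductase genes SDR4 (AT3G29250) and AT1G66800, and the acyltransferase gene AT5G47950. The RefSeq annotation gives the oxidoreductase genes the product of an NAD(P)-binding Rossmann-fold protein and AT5G47950 that of an HXXXD-type acyltransferase, and does not tie them to thalianol. Of the 3, 2 (66.7%) were listed, beside 10.8% of all annotated nuclear protein-coding genes. The list was made with earlier results of these data known, so nothing is read from this share. SDR4, on chromosome 3, was at 6.67 FPKM in pkl and 26.2 FPKM in WT, 3.93-fold lower in pkl. AT1G66800, on chromosome 1, was at 0.675 FPKM in pkl and 2.60 FPKM in WT, 3.85-fold lower. These folds exceeded that of each of the 4 listed cluster genes, and the q-value of each in the authors' deposited table was 0.000338. AT5G47950, which lies 10.2 kb before AT5G47980, had no row.

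The listed genes were not contiguous on the chromosome, but a missing row does not show that the gene between them was unchanged. The thalianol cluster spans 32.8 kb from the start of AT5G47980 to the end of THAS1 (19428888 to 19461706, TAIR10.1), and the unlisted THAH lies between THAD and THAS1 on the opposite strand. The marneral cluster spans 34.7 kb (17023502 to 17058245) and lies 2.37 Mb away on the same chromosome. CYP71A16 stands there between CYP705A12 and MRN1, with 3 annotated non-coding RNA genes between it and MRN1. None of these, nor the long non-coding RNA gene AT5G07035 between AT5G47980 and THAD, had a row. Whether the authors' gene models held these non-coding genes is not known, so nothing is read from their absence.

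Among the 5 annotated genes on either side of each cluster, 2 of 20 had a row, both beside the thalianol cluster. This is 2 of 10 there, all protein-coding, and 0 of 10 beside the marneral cluster, of which 7 were protein-coding. Among the 27444 annotated nuclear protein-coding genes, 10.8% had a row. AT5G48020, a 2-oxoglutarate-dependent oxygenase gene on the opposite strand whose nearer end lies 809 bases past THAS1, was at 20.8 FPKM in pkl and 27.4 FPKM in WT, 1.32-fold lower. AT5G47940, annotated as a ribosomal protein gene, was at 5.57 FPKM in pkl and 6.92 FPKM in WT, 1.24-fold lower. For this pair, q-values in the authors' deposited table were 0.000926 and 0.0377. Both folds were below the table's median of 1.52, and all 4 listed cluster genes were above it. The cluster genes were chosen with these values known, and flanking genes with no row have no value. No contrast of cluster and flanks is drawn from this. The genes were not matched by level. In WT the cluster genes reached 8.14 FPKM, AT5G47940 was at 6.92 FPKM and AT5G48020 at 27.4 FPKM.

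**Figure D2:**
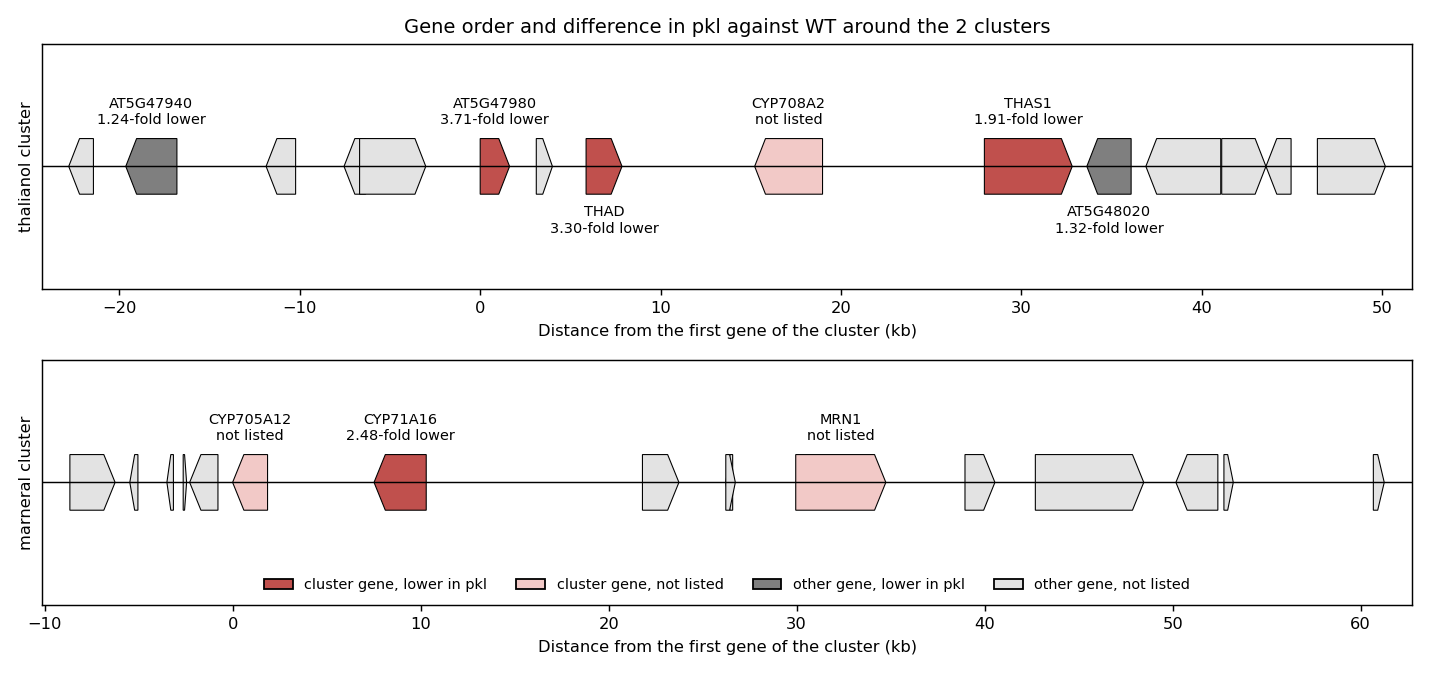
Annotated genes (arrows point in the direction of transcription) along the thalianol cluster (top) and the marneral cluster (bottom), by distance in kb from the start of the first cluster gene, with 5 genes on either side. Dark red marks cluster genes lower in pkl and pale red cluster genes with no row. Dark grey marks other genes lower in pkl and light grey other genes with no row. Listed genes of the thalianol cluster were 1.91-fold to 3.71-fold lower, and CYP708A2 (THAH), whose level is not known, lies between THAD and THAS1.

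No member had a near-identical coding copy (at least 95% identity over at least 80% of its length). The closest coding sequence to THAS1 was that of BARS1, the baruol synthase gene, with 84.6% identity, and the closest to THAD was CYP705A30, with 81.6%. For AT5G47980 it was BIA1 with 68.8%, and for CYP71A16 it was CYP71A13 with 71.4%. Across the clusters the cyclases THAS1 and MRN1 were identical at 76.4% of 2286 aligned bases. The P450 genes THAD and CYP705A12, of the same subfamily, were identical at 74.6% of 1484. In each of these pairs the thalianol gene was listed and the marneral gene was not. No member overlapped another annotated gene.

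The promoters of the listed genes were read to see which short motifs the genes share upstream. The 250 bases before the annotated start of each gene (RefSeq, TAIR10.1) are given 5′ to 3′ on the strand of the gene, with capitals for matches on either strand to the TATA-like motif TATAAA, the G-box core CACGTG, the W-box core TTGAC, the GAGA motif GAGAGA and the telobox-like motif AAACCCTA.
THAS1, chr5:19456587-19456836, forward strand: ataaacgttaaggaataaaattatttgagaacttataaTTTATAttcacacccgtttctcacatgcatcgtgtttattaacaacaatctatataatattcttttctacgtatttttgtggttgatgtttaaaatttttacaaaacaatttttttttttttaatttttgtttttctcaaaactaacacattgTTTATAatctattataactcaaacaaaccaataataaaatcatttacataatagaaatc
THAD, chr5:19434508-19434757, forward strand: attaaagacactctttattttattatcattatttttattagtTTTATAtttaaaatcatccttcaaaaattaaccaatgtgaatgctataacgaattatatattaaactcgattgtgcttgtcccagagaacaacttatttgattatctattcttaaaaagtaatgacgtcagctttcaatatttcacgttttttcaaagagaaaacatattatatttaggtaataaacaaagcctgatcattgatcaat
AT5G47980, chr5:19428638-19428887, forward strand: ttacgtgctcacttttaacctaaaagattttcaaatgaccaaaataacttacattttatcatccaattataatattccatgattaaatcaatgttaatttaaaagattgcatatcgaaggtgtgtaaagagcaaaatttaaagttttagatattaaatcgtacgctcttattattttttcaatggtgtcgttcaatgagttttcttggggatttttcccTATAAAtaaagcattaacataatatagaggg
CYP71A16, chr5:17033801-17034050, reverse strand: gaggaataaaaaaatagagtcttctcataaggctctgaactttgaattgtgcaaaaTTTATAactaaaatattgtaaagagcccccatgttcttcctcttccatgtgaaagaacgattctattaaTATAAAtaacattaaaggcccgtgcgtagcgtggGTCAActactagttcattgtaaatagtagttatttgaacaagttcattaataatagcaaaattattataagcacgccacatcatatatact
No matches overlapped.

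TATAAA was in all 4 of these windows, and it was also in 47.3% of the 27443 promoter windows of the same length and in 50.4% of the 2959 windows of listed genes. In AT5G47980 it began 31 bases before the start and in CYP71A16 125 bases before it, in the direction of the gene. The windows of THAS1 and THAD held it on the opposite strand alone. TTGAC was in the CYP71A16 window alone of the 4, against 44.9% of all windows. The G-box core (in 6.49% of all windows), the GAGA motif (20.6%) and the telobox-like motif (4.49%) were in none of the 4, although the GAGA motif was in the window of the unlisted THAH. The GC content was 20.8% for THAS1, 24.0% for THAD and 26.8% for AT5G47980, below the median of 31.2% over all windows. For CYP71A16 it was 31.6%, near that median. A match is a description of letters and not a site.

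Among the other 11 oxidosqualene cyclase genes of the genome, 3 (27.3%) had a row, beside 10.8% of all annotated nuclear protein-coding genes. LAS1, the lanosterol synthase gene, was at 0.309 FPKM in pkl and 0.769 FPKM in WT, 2.49-fold lower. CAS1, whose product makes cycloartenol, the precursor of plant sterols, was at 47.6 FPKM in pkl and 57.4 FPKM in WT, 1.21-fold lower. PEN1, the arabidiol synthase gene, was 1.25-fold lower, at 7.35 FPKM in pkl and 9.15 FPKM in WT. The fold of THAS1 lay between that of LAS1 and those of PEN1 and CAS1. Folds of CAS1 and PEN1 were smaller than that of any listed member of the 2 clusters, while their WT levels were higher.

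Upstream, 4 of 20 genes of the mevalonate pathway and squalene synthesis had a row, a share of 20.0% beside the 10.8% of all annotated nuclear protein-coding genes. HMG1, the gene for the reductase that commits carbon to the mevalonate pathway, was at 209 FPKM in pkl and 256 FPKM in WT, 1.23-fold lower. SQS1, the squalene synthase gene, was 1.28-fold lower, and SQE3, a squalene epoxidase gene, was 1.40-fold lower. The largest fold was in the squalene epoxidase homolog SQP1, at 0.316 FPKM in pkl and 1.09 FPKM in WT, 3.44-fold lower. The other 3 listed upstream genes thus had folds of 1.23 to 1.40, beside 1.91 to 3.71 for the 4 listed cluster genes. These sets were not matched by level. The 3 upstream genes were at 20.5 to 256 FPKM in WT, and the cluster genes at 0.866 to 8.14 FPKM. Upstream genes with no row were not analysed here. In the authors' deposited table the 4 listed upstream genes had q-values from 0.000338 to 0.00961.

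Other triterpene clusters were looked up in the same way. Of 12 genes in the arabidiol and baruol cluster on chromosome 4, 2 were listed: PEN1, given above, and the acyltransferase gene BIA1, 1.34-fold lower at 3.29 FPKM in pkl and 4.42 FPKM in WT. Of 6 genes in the tirucalladienol cluster, 1 was listed, the serine carboxypeptidase-like gene scpl1, at 2.79 FPKM in pkl and 7.99 FPKM in WT, 2.86-fold lower. Each share was 16.7%, beside 10.8% of all annotated nuclear protein-coding genes.

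**Figure D3:**
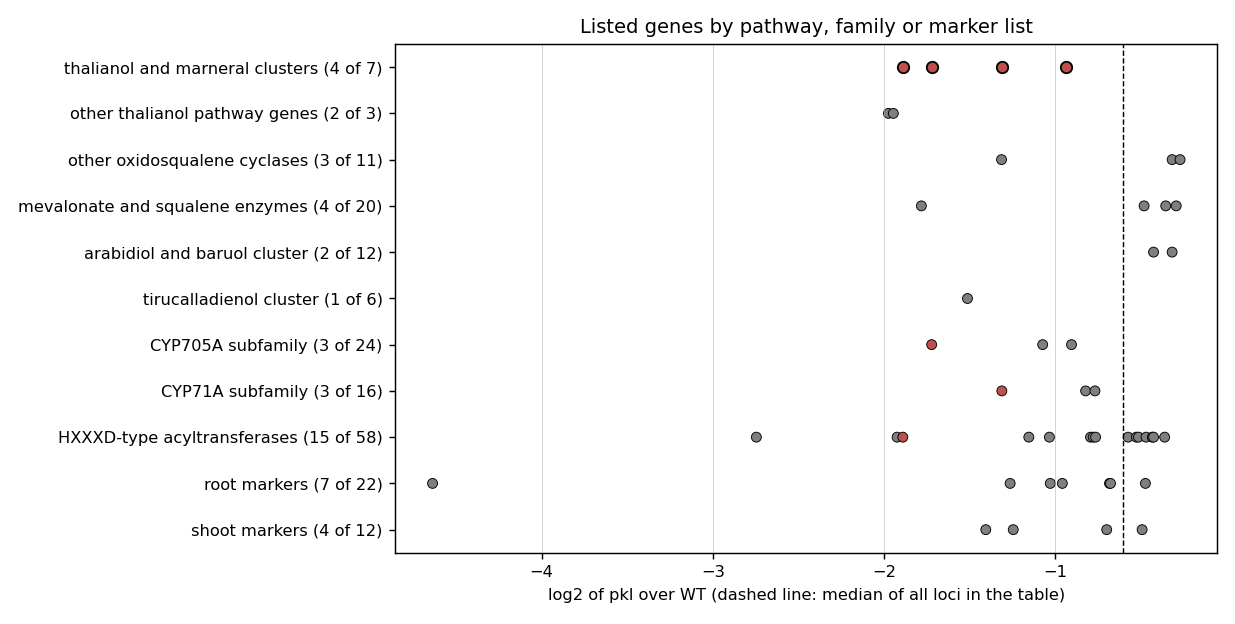
Listed genes of each pathway, family or marker list (rows, with the number listed of the number in the list) by log2 of the pkl level over the WT level (horizontal axis); red points are genes of the thalianol and marneral clusters and the dashed line is the median of all 2896 loci, -0.60. The 4 cluster genes and the 2 other thalianol genes lie to the left of that line, while 3 of the 4 listed mevalonate and squalene genes lie to its right. The lists were not matched by level.

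Because the clusters are transcribed mainly in roots, markers of root and shoot tissue were set beside them. Of 22 root markers, 7 (31.8%) had a row, where 10.8% of all annotated nuclear protein-coding genes had one. They were 1.39-fold to 24.9-fold lower, and the summed level of these 7 was 81.6 FPKM in pkl and 200.0 FPKM in WT. The locus at 1.39-fold holds 2 genes, so its level is not that of the marker alone. TIP2;3, a tonoplast water channel gene, led at 2.63 FPKM in pkl and 65.5 FPKM in WT. The iron transporter gene IRT1 was 2.04-fold lower, at 0.959 FPKM in pkl and 1.96 FPKM in WT. CASP1, a gene of the Casparian strip of the endodermis, was 1.94-fold lower. Of 12 shoot markers, 4 (33.3%, beside the same 10.8%) had a row, 1.41-fold to 2.65-fold lower, with a summed level of 1910 FPKM in pkl and 3320 FPKM in WT. Both sums cover only markers already called lower, so their direction was given in advance. Markers with no row were not analysed here. No listed marker was at 0 in either genotype. The median log2 fold change was -0.96 for the listed root markers and -0.97 for the listed shoot markers, beside -1.52 for the 4 cluster genes. These sets were not matched by level. The part of root tissue in the lower cluster transcripts was not tested, and in whole seedlings fewer cells of a type and less RNA per cell cannot be told apart.

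**Figure D4:**
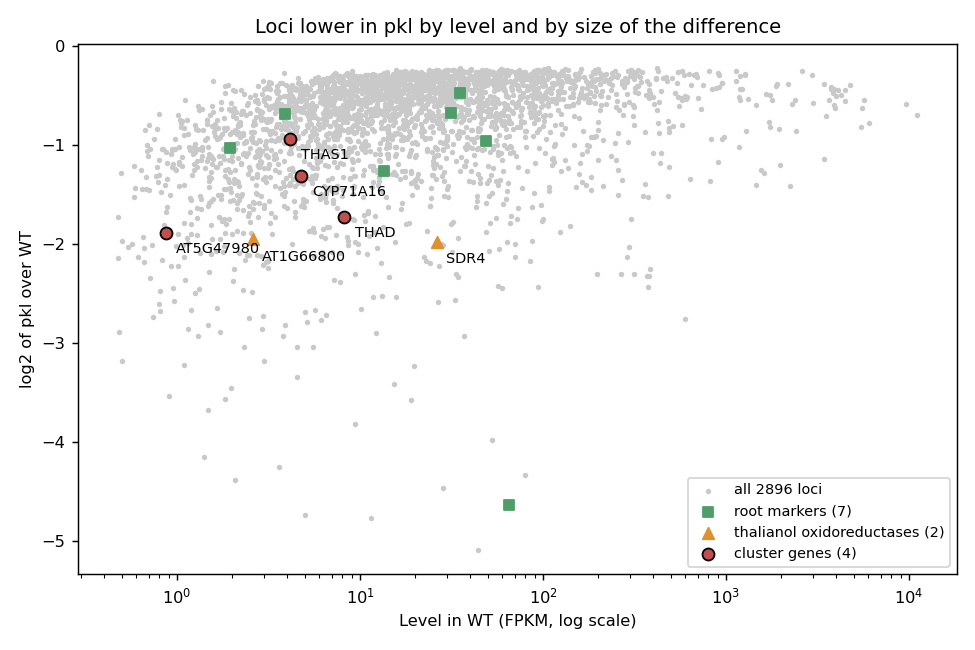
The log2 of the pkl level over the WT level (vertical axis) against the level in WT (horizontal axis, FPKM on a log scale) for all 2896 loci (grey), with the 4 cluster genes (red circles), the 2 thalianol oxidoreductase genes outside the cluster (orange triangles) and 7 root markers (green squares). THAD, at 8.14 FPKM in WT, is the rightmost cluster gene, and SDR4, at 26.2 FPKM, lies at a similar height further to the right.

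The loci most like each listed gene were sought by the distance between their pairs of log2 levels, over the 2 genotypes. Nearest to CYP71A16 was the laccase gene LAC17 (AT5G60020), at 1.94 FPKM in pkl and 4.76 FPKM in WT, and then AT5G22390. THAS1 had AT4G13620 and AT4G24265 as its nearest loci. AT5G47980 had AT5G24040 and the homeobox gene HB53, and THAD had the Dof-type gene AT5G65590 and the HXXXD-type acyltransferase gene AT3G23840, at 2.24 FPKM in pkl and 8.50 FPKM in WT. Within a distance of 0.1 there were 7 other loci for THAS1, 4 for CYP71A16, 1 for AT5G47980 and 0 for THAD. With 2 values per gene, this likeness says no more than that level and fold are close.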

How the data were processed

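RNA of whole seedlings had been sequenced from 3 pkl and 3 WT libraries. Reads were processed with TopHat, Cufflinks 2.1.1 and Cuffdiff 2.1.1 on TAIR10, per the submitters' processing notes. Per the file headers, the deposited table gives 1 FPKM value per genotype and locus, the log2 of pkl over WT, a signed test score (not used), and the authors' p-value and q-value. All 2896 rows were called by the authors and all were lower in pkl. The ranks behind the q-values implied 5992 passing tests, so the 2896 rows are only part of the called loci. The direction of the called loci without a row is not known here. No values per library were used, so the depth is unknown and no test was run here.

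The log2 fold change matched the ratio of the FPKM columns to within 1.2e-05. The number of tests, 19554, was the one that made p over q times it whole, with a deviation of 0.009 at the 90th percentile of 285 values, against 0.216 for the next best number, 19550. On simulated tables the true number was recovered in 10 of 10. Table starts, counted from 0, are printed from 1. Gene bounds and promoters were read from RefSeq's TAIR10.1; each of 2740 single-gene loci lay over the gene of the same identifier there. Promoter windows and coding sequences were compared with Biopython 1.88 and BLAST+ 2.17.0.

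The members and lists were chosen with earlier results of these data known. Genes named were the members, 5 neighbours on either side, up to 4 listed genes per list by fold (1 root marker is not reported here), the 2 loci nearest each listed member, and PKL. Alternatives were a q under 0.01, a 2-fold minimum, minimum WT levels, loci of 1 gene, and pseudocounts.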

Additional observations from a re-analysis of the deposited data

How the results depend on the processing

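All 4 members had a q under 0.01 in the authors' deposited table and were alone in their locus. With a 2-fold minimum 3 members were left, without THAS1, and 748 of the 2896 loci. With a minimum of 1 FPKM in WT 3 members were left, without AT5G47980, and with 5 FPKM only THAD, 1 member. The other alternatives left 2145 to 2829 loci. A pseudocount of 0.1 FPKM gave log2 fold changes of -1.53 for AT5G47980, -1.68 for THAD (AT5G47990), -0.90 for THAS1 (AT5G48010) and -1.27 for CYP71A16 (AT5G42590), and a pseudocount of 1 FPKM gave -0.60, -1.40, -0.70 and -0.98 for the same genes in that order. AT5G47980 thus has the largest fold of the 4 with no pseudocount and the smallest with 1 FPKM, because its level is lowest; each gene stayed lower in pkl. No paired analysis was possible because libraries of a genotype are merged into 1 value. Leaving out replicates and recentring on all genes were not run for that reason and because every locus listed is lower.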

Other observations

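The enzyme families of the cluster genes had other members in the table. Of 58 genes annotated as HXXXD-type acyltransferases, the family of AT5G47980, 15 (25.9%) had a row, beside 10.8% of all annotated nuclear protein-coding genes. Of these 15, 5 were at least 2-fold lower in pkl, as were 25.8% of all loci in the table. PMAT2, a malonyltransferase gene, was the lowest relative to WT, at 0.367 FPKM in pkl and 2.46 FPKM in WT, 6.71-fold lower. AT3G23840 followed at 3.79-fold, then AT5G47980 itself and AT3G29680 at 2.23-fold. The median log2 fold change of the 15 was -0.76, beside -0.60 for all 2896 loci.

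Of 24 genes of the CYP705A subfamily, 3 (12.5%) had a row, a share near the 10.8% of all annotated nuclear protein-coding genes: THAD, CYP705A13, at 1.99 FPKM in pkl and 4.18 FPKM in WT, and CYP705A25, 1.87-fold lower in a locus of 2 genes. Of 16 genes of the CYP71A subfamily, 3 (18.8%, beside the same 10.8%) had a row: CYP71A16, CYP71A25 at 1.77-fold and CYP71A27 at 1.70-fold. None of the 3 CYP708A genes, which include THAH, was listed. All these counts come from the contrast on which the cluster genes were chosen, and the direction of a gene with no row was not analysed here.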
